A study of Rattus norvegicus with 15 samples.

Results

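Cytochromes P450 of families 1, 2 and 3 are membrane-bound heme enzymes that oxidize drugs, foreign chemicals, steroids and fatty acids, mostly in the endoplasmic reticulum of hepatocytes. They take electrons from P450 oxidoreductase and cytochrome b5. Their transcription in the liver follows ligand-activated receptors, mainly the aryl hydrocarbon receptor AHR for CYP1, CAR for CYP2B and PXR for CYP3A, while the pattern of growth hormone release sets the male and female forms of CYP2C in rats. Members were the protein coding genes of the deposited table whose symbol names a P450 of families 1 to 3, 37 of 32623 genes, in 16 subfamilies. Family 1 had 3 genes, family 2 had 30 and family 3 had 4.

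RNA of whole livers of male Wistar rats with a starting weight of 75 to 100 g was sequenced, with 5 rats listed per group. Control rats received no treatment. Rats of the CCl4 group breathed carbon tetrachloride (CCl4) and drank phenobarbital at 0.35 g/L for 12 weeks, which produces cirrhosis. Rats of the CCl4+eplerenone group had the same CCl4 and phenobarbital. From week 8 to week 12 they also ate eplerenone, a blocker of the mineralocorticoid receptor (MR), at 100 mg/kg in hazelnut spread. Livers were taken 7 to 10 days after the last CCl4. No group had CCl4 or phenobarbital alone, so the part of each agent cannot be told apart. The study ended eplerenone with the 12 weeks of CCl4, and its treatment scheme places liver collection about a week after treatment ended. The rats sequenced were a selection by how well cirrhosis or eplerenone had worked. Control replicate 1 was not analysed here, which left 4 controls, numbered 2 to 5, 5 CCl4 and 5 CCl4+eplerenone rats. The study set aside 1 control that stood apart from the others in a principal component analysis. Whether that was replicate 1 is not stated. Leaving out a control by its expression can narrow the control ranges.

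Depth ran from 16157491 to 21574767 counted reads per library. Values are given as FPM, the gene's share of reads on a per-million scale after TMM scaling of library sizes, on which 3 counts stood for 0.121 to 0.191 FPM. FPM carry no gene length, so levels were compared between rats but not between genes. On the first principal component of the 500 most variable genes, controls lay between 44.3 and 50.6 and CCl4 replicates 1 to 4 between -47.7 and -38.0. CCl4 replicate 5 lay at 13.03 and CCl4+eplerenone replicate 3 at -42.6, each nearer to another group than to most of its own. The other 4 eplerenone rats lay between -18.5 and 26.8. The highest of these, replicate 2, also lay nearer to the controls than to most of its own group, but it was kept. Results that rest on CCl4 replicate 5 or CCl4+eplerenone replicate 3 are given with and without them. Leaving them out draws the groups apart by construction, because both were picked for their expression.

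In CCl4 against control, 11 of 31 tested members passed an FDR of 0.05 with the quasi-likelihood test of edgeR, against 20.2% of all 14417 genes tested. In whole liver, fewer hepatocytes and less P450 RNA per hepatocyte cannot be told apart. Of these, 4 rose, namely Cyp2b1, Cyp2c12, Cyp2c22 and Cyp3a62, against 13.4% of all genes. The 7 that fell were Cyp1a2, Cyp2a1, Cyp2c23, Cyp2d2, Cyp2f4, Cyp2j10 and Cyp2r1, against 6.71% of all genes. The median log2FC of the tested members was -0.65, with -0.01 over all genes. Scaled by total counts instead of TMM, the median over all genes was 0.28 and that of the members -0.39, and 5 members were called higher and 5 lower, against 21.2% and 2.54% of all genes. Cyp1b1 was added as higher, although only its higher groups let it in, and Cyp2c23 and Cyp2f4 no longer passed. For 12 members all 5 CCl4 rats lay below all 4 controls (9.03% of all genes did so), and for 4 members all lay above (11.2% of all genes). Without both libraries that stood apart, 5 members rose and 14 fell, against 19.3% and 14.9% of all genes. The 5 include Cyp1b1, which entered the test only through its higher groups.

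With each of the 14 libraries left out in turn, Cyp2a1, Cyp2j10, Cyp2r1 and Cyp3a62 were called in CCl4 against control every time. Cyp2f4 was called in 10 of the 14 fits, Cyp2b1 in 9, Cyp1a2 in 8 and Cyp2c12 in 6. Cyp2c23 was called in 4, and Cyp2c22 and Cyp2d2 in 3 each. The highest FDR that these 7 reached in any such fit was 0.124.

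The other 6 members had too few reads for a test. Cyp2g1 and Cyp2j16 had no read in any of the 14 libraries, and Cyp2b12, Cyp2b15, Cyp2b21 and Cyp2w1 never passed 0.382 FPM. Cyp1a1 and Cyp1b1 passed the filter although they were at or near 0 in most controls, so that only their higher groups let them in. Cyp2c24 had 7 and 5 counts in control replicates 4 and 5, and Cyp2s1 had 3 and 6. Their treated groups let these 2 genes in. Reads that fit several places were counted at each, so near-identical members can share reads, and Cyp2b1 with Cyp2b2 and the Cyp2c and Cyp2d genes are uncertain to that degree.

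**Figure D1:**
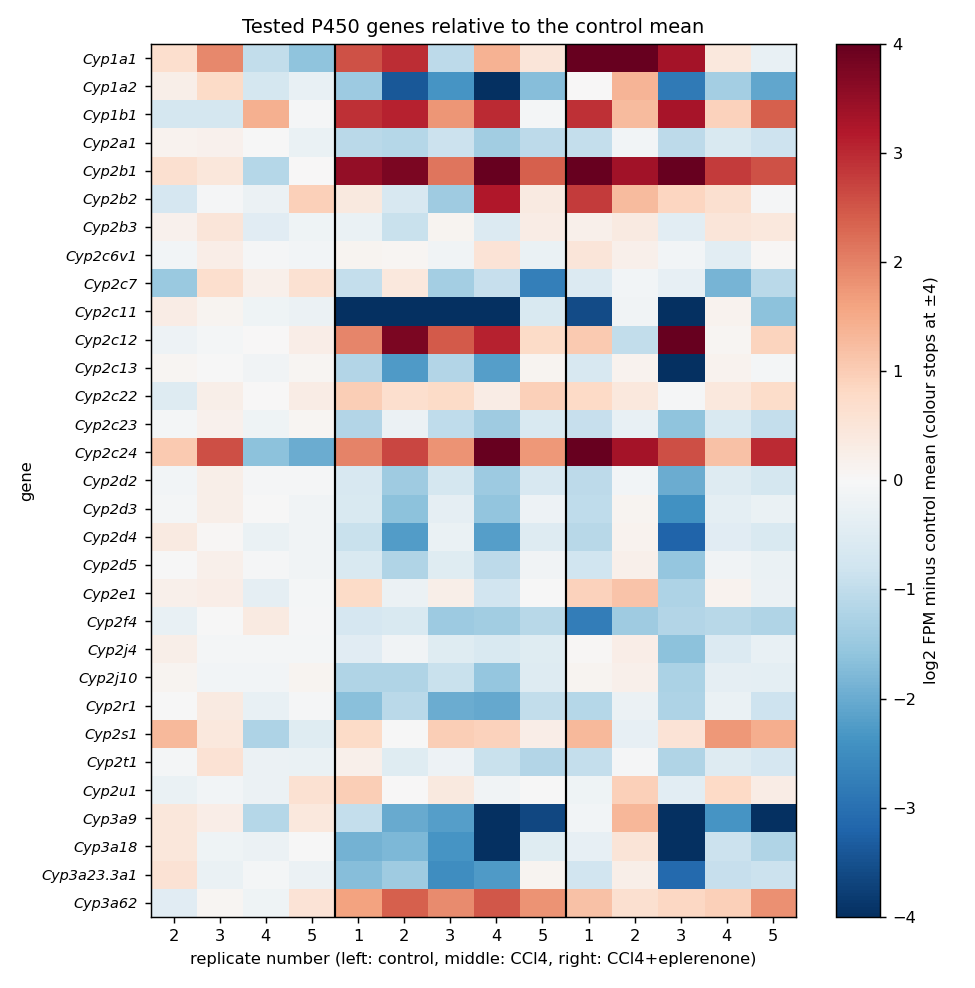
Log2 FPM of the 31 tested P450 genes (vertical axis) in each library (horizontal axis, replicate number) minus the control mean of the gene; red is higher, blue is lower, and the colour stops at 4 in either direction. Cyp2b1 and Cyp3a62 are red in all 10 CCl4-treated rats. Cyp2c11 is dark blue in CCl4 replicates 1 to 4 and CCl4+eplerenone replicates 1 and 3 but pale in CCl4 replicate 5.

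Summed over the 37 members, P450 transcripts took 2.28, 2.42, 2.00 and 2.06% of counted reads in the controls. They took 1.70, 1.70, 1.46, 1.68 and 2.07% in CCl4, and 2.41, 2.76, 1.43, 1.93 and 1.84% in CCl4+eplerenone. In these unscaled shares CCl4 replicates 1 to 4 lay below every control, CCl4 replicate 5 and eplerenone replicate 1 lay among the controls, and eplerenone replicate 2 lay above them. On the TMM scale used for all other levels, the sum was 22798 to 28158 FPM in controls and 13919 to 21093 FPM in CCl4, so that all 5 CCl4 rats lay below all 4 controls. With eplerenone it was 29865 FPM in replicate 2, above all controls, and 10159 to 21583 FPM in the other 4 rats, below all controls. Replicate 3 was the lowest of the 14 rats on both scales. The CYP3A sum was 0.297 to 0.526% of reads in controls and 0.0748 to 0.168% in CCl4 replicates 1 to 4, with 0.402% in CCl4 replicate 5, which lay among the controls in FPM as well. The CYP2C sum overlapped between controls and CCl4 as a share of reads, at 0.900 to 1.14% and 0.678 to 1.01%, but not in FPM, at 10270.4 to 13313 FPM and 7003 to 9703 FPM. Read sums were described and not tested.

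**Figure D2:**
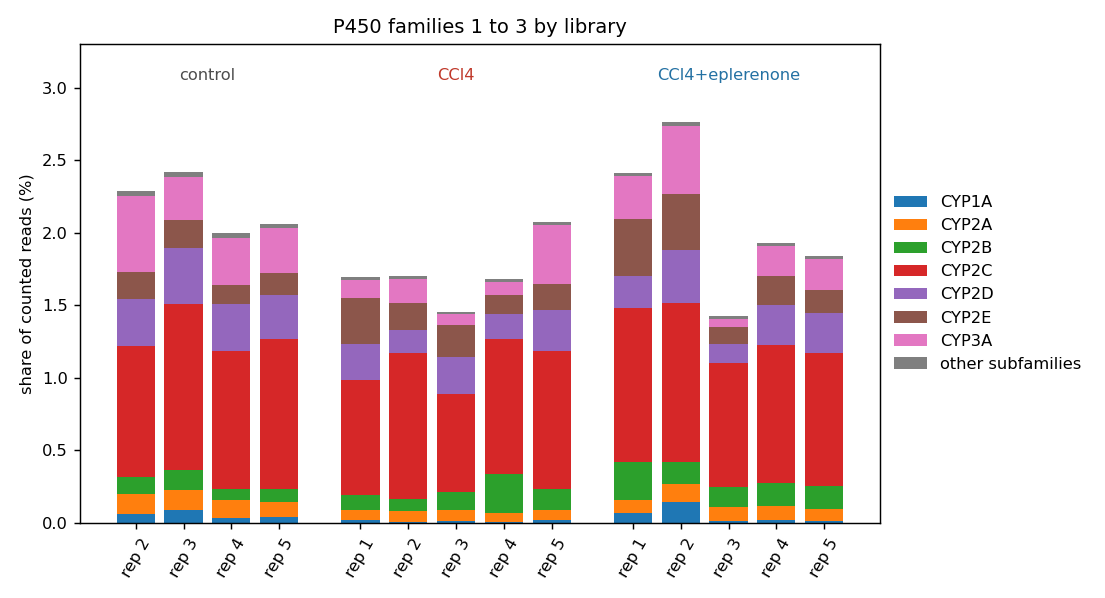
Share of counted reads in percent, without TMM scaling (vertical axis), taken by the P450 subfamilies in each library (horizontal axis), stacked from CYP1A at the bottom to the small subfamilies at the top. The whole stack runs from 1.43% in CCl4+eplerenone replicate 3 to 2.76% in CCl4+eplerenone replicate 2, and the CYP3A segment is thin in CCl4 replicates 1 to 4.

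Cyp1a2 (ENSRNOG00000016173, chromosome 8), which oxidizes caffeine and aromatic amines and is a target of AHR, was lower in every CCl4 rat than in any control. It stood at 699, 1015, 368 and 482 FPM in the controls, 217, 56.7, 117, 24.4 and 183 FPM in CCl4 and 608, 1519, 84.1, 232 and 141 FPM in CCl4+eplerenone. The log2FC was -2.42 ± 0.75 (SE), FDR 0.0358, from a mean of 641 ± 284 FPM (SD, n = 4) to 119 ± 81.4 FPM (SD, n = 5). With eplerenone the values spread from below the control range to above it. The difference between CCl4+eplerenone and CCl4 was 2.11 ± 0.72 (SE), FDR 0.312, and that to control was -0.31 ± 0.73 (SE), FDR 0.87, so neither passed the test.

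Cyp1a1 (ENSRNOG00000019500, chromosome 8), a strongly inducible AHR target, did not exceed 1.16 FPM in controls. Its values were 0.422, 1.16, 0.061 and 0 FPM in the controls, 1.83, 2.49, 0.054, 0.769 and 0.357 FPM in CCl4 and 17.7, 14.4, 3.24, 0.338 and 0.164 FPM in CCl4+eplerenone. Replicates 1, 2 and 3 of the eplerenone group were higher than all other rats, and replicates 4 and 5 lay within the control range. Its log2FC of 2.68 against CCl4 and 4.09 against control are descriptions, since only the higher rats let this gene into the test. Cyp1b1, an extrahepatic member that hydroxylates estrogens, was at 0 in 2 controls and reached 1.39 FPM in CCl4, with a log2FC of 2.99 against control, given as a description for the same reason.

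The 250 bases before the RefSeq start of Cyp1a2 (GRCr8, chr8:66978150-66978399, minus strand) are shown because this member was low in all CCl4 rats and at control levels in some eplerenone rats. Capitals mark TATAAA, whose first base is at -39.
Cyp1a2: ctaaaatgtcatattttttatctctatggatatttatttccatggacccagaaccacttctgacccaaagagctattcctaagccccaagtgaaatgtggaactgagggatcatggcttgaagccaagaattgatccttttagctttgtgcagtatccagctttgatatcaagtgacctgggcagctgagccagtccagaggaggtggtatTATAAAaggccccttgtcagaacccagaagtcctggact
The letters TATAAA, searched on both strands, were found in 12 of the 35 members with a promoter in the RefSeq table and in 12.9% of all 33469 promoters. The letters GCGTG, the core bound by AHR, are in the window of 7 members, Cyp1b1, Cyp2b1, Cyp2b2, Cyp2r1, Cyp2t1, Cyp2u1 and Cyp2w1, and in 25.9% of all promoters. Cyp1a1 and Cyp2c6v1 had no entry.

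Cyp2b1 (ENSRNOG00000033680), the classical phenobarbital-induced P450 of the rat and a CAR target, was higher in all 10 CCl4-treated rats than in any control. The values were 5.06, 4.45, 1.40 and 3.24 FPM in the controls, 37.9, 45.2, 14.4, 1066 and 17.3 FPM in CCl4 and 736, 33.6, 53.6, 22.6 and 19.2 FPM in CCl4+eplerenone. CCl4 replicate 4 and eplerenone replicate 1 stood far above the other 8 treated rats, which reached 53.6 FPM at most. The log2FC of CCl4 against control was 6.06 ± 1.68 (SE), FDR 0.0223, and DESeq2 gave no p for this gene. Without CCl4 replicate 4 it was 3.03 (FDR 0.074), which is no longer past the threshold, although the groups still did not overlap. Against control, CCl4+eplerenone was at 5.61 ± 1.64 (SE), FDR 0.0605, which passed with a log2FC of 5.61 (FDR 0.0164) without CCl4 replicate 4 and stood at 3.21 (FDR 0.164) without eplerenone replicate 1. Between the 2 treated groups the log2FC was -0.45 ± 1.21 (SE), FDR 0.866, and it turned to 2.57 (FDR 0.327) without CCl4 replicate 4 and to -2.88 (FDR 0.54) without eplerenone replicate 1.

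Cyp2b2 (ENSRNOG00000020775), the near-identical phenobarbital-induced partner, was chosen for description after its values were seen. It stood at 25.1, 38.5, 33.7 and 77.6 FPM in the controls, 52.1, 25.5, 14.9, 372 and 51.7 FPM in CCl4 and 278, 96.5, 72.9, 61.8 and 38.3 FPM in CCl4+eplerenone. The same 2 rats were the highest, but the groups overlapped. Its log2FC was 1.24 ± 0.81 (SE), FDR 0.273, in CCl4 and 1.32 ± 0.81 (SE), FDR 0.396, in CCl4+eplerenone, both against control. Cyp2b3, a CYP2B gene that phenobarbital is known not to induce, was at 1188 ± 332 FPM (SD, n = 4) in controls and 1007 ± 324 FPM (SD, n = 5) in CCl4, with a log2FC of -0.24 ± 0.28 (SE), FDR 0.543.

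The promoters of Cyp2b1 (chr1:90645869-90646118) and Cyp2b2 (chr1:90722031-90722280), both on the plus strand of GRCr8, are shown because the 2 genes are alike in sequence while only Cyp2b1 passed the test. Capitals mark GCGTG, at -86 in Cyp2b1 and -103 in Cyp2b2. The distal enhancer through which phenobarbital acts lies farther upstream and is not in these windows.
Cyp2b1: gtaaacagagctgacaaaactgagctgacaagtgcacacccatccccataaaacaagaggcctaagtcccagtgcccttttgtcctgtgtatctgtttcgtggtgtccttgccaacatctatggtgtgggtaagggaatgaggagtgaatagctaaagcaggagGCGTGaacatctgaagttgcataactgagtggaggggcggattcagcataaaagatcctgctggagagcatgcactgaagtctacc
Cyp2b2: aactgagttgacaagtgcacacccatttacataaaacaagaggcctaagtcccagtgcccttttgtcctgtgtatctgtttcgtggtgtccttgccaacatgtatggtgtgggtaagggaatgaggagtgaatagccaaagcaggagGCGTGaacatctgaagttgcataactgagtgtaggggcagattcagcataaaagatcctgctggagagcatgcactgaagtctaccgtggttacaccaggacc
Laid over each other without gaps, at the shift that gave the highest identity, the windows were identical at 225 of 233 overlapping bases (96.6%). The deposited table places Cyp2b1 on chromosome 7 and Cyp2b2 on chromosome 1 of rn6, while RefSeq has both on chromosome 1 of GRCr8.

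**Figure D3:**
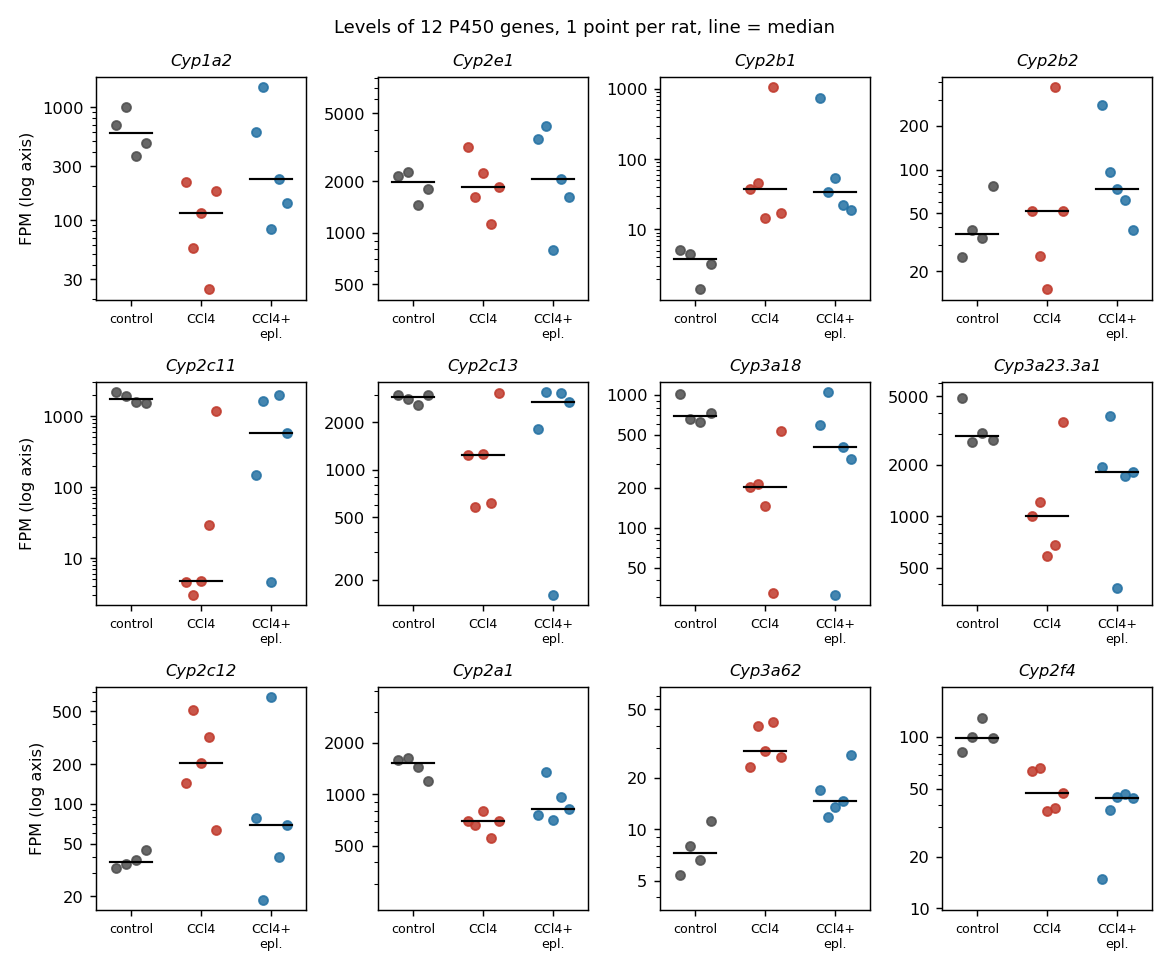
FPM of 12 P450 genes on log axes (vertical), 1 point per rat, in controls (grey), CCl4 (red) and CCl4+eplerenone (blue); black lines are medians. Cyp2b1 has 1 rat at 1066 FPM in CCl4 and 1 at 736 FPM in CCl4+eplerenone, Cyp2c11 spans 4.61 to 1966 FPM within the eplerenone group, and Cyp2e1 overlaps between all groups.

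Cyp2c11 (ENSRNOG00000052810), the main male form, which hydroxylates testosterone and depends on pulses of growth hormone, was lower in every CCl4 rat than in any control. It stood at 2196, 1941, 1595 and 1511 FPM in the controls, 4.66, 3.06, 4.69, 29.6 and 1183 FPM in CCl4 and 148, 1615, 4.61, 1966 and 579 FPM in CCl4+eplerenone. CCl4 replicates 1 to 4 had 3.06 to 29.6 FPM, and CCl4 replicate 5 was still below the lowest control, so that the groups did not overlap. The log2FC of -2.89 ± 1.57 (SE), FDR 0.191, did not pass the test. Without CCl4 replicate 5 it was -7.43 (FDR 0.00193), in a fit that called 14.1% of all genes lower, against 6.71% with all libraries. Eplerenone replicates 2 and 4 were within the control range, replicates 1 and 5 were below it, and replicate 3 was as low as CCl4 replicates 1 to 4.

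In Cyp2c13 and Cyp3a18, also male forms, CCl4 replicate 5 was again the highest of its group and eplerenone replicate 3 the lowest. Cyp2c13 was at 2970.0, 2804, 2561 and 2995 FPM in the controls, 1246, 582, 1265, 619 and 3049.6 FPM in CCl4 and 1805, 3122, 161, 3088 and 2683 FPM in CCl4+eplerenone. CCl4 replicate 5 was above all controls, and eplerenone replicate 3 was far below the others. The log2FC was -1.07 ± 0.61 (SE), FDR 0.208, with CCl4 and -1.61 (FDR 0.0494) when CCl4 replicate 5 was left out. Without that library, 14.1% of all genes were called lower. Cyp3a18 stood at 1016, 653, 629 and 733 FPM in the controls, 202, 214, 144, 31.9 and 529 FPM in CCl4 and 595, 1053, 31.3, 406 and 326 FPM in CCl4+eplerenone. All CCl4 rats were below all controls, with a log2FC of -1.76 ± 0.72 (SE), FDR 0.0908, and -2.35 (FDR 0.0252) without CCl4 replicate 5. With all libraries 0 of the 3 tested male forms were called by edgeR or DESeq2, with 1 at an unadjusted p below 0.05, and Cyp2a2 and Cyp3a2 were not analysed here.

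Cyp2c12 (ENSRNOG00000047945), the female form, which hydroxylates steroid sulfates, was higher in every CCl4 rat than in any control. Its values were 32.7, 35.4, 37.7 and 44.9 FPM in the controls, 144, 514, 203, 319.5 and 64.0 FPM in CCl4 and 78.0, 19.0, 642, 39.6 and 69.2 FPM in CCl4+eplerenone. The log2FC was 2.73 ± 0.88 (SE), FDR 0.0408, and CCl4 replicate 5 was the lowest of its group. With eplerenone, replicate 3 was the highest of all rats and replicate 2 the lowest. The log2FC of CCl4+eplerenone against control was 2.17 ± 0.86 (SE), FDR 0.158, and 0.45 (FDR 0.744) without CCl4+eplerenone replicate 3. Of the other 3 forms counted as female-predominant, 0 passed as higher. Cyp2a1 fell, Cyp2c7 had a log2FC of -0.98 ± 0.53 (SE), FDR 0.19, and Cyp3a9 one of -2.37 ± 1.17 (SE), FDR 0.154.

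The starts of Cyp2c11 (chr1:246174966-246175215, plus strand), Cyp2c24 (chr1:246286091-246286340, plus strand) and Cyp2c12 (chr1:248677035-248677284, minus strand), all GRCr8, are shown because the male and the female form lay on opposite sides of the controls in CCl4, and because Cyp2c24, which lies near Cyp2c11, was not lower in CCl4. Capitals mark TATAAA, with its first base at -31, -29 and -52 in this order.
Cyp2c11: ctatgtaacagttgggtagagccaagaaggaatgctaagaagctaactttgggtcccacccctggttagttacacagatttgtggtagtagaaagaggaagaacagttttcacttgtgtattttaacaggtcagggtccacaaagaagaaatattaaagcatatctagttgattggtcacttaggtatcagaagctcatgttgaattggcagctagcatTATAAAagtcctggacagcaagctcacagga
Cyp2c24: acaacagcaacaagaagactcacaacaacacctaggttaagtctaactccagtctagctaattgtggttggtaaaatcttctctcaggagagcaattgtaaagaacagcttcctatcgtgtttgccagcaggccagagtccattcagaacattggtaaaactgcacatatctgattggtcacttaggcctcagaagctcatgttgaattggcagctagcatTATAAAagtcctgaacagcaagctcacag
Cyp2c12: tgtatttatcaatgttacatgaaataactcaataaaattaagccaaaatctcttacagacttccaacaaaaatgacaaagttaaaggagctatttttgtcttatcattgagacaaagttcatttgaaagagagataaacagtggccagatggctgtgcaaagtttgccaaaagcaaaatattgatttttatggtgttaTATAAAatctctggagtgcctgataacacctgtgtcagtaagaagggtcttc
Identity was taken without gaps, at the shift with at least 200 overlapping bases that gave the highest share. Cyp2c11 and Cyp2c24 were identical at 151 of 248 overlapping bases (60.9%), against 35.0% for Cyp2c11 and Cyp2c12. The unrelated pair Cyp1a2 and Cyp2c11 had 33.3%. The letters TTCNNNGAA, which STAT5 can bind, are in none of these 3 windows and in 7.67% of all promoters; among members they are in Cyp2j4 and Cyp2t1. TGTTTAC, a forkhead motif, is in Cyp2b1, Cyp2c7, Cyp2c22 and Cyp2c23 and in 3.21% of all promoters.

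Cyp2c24 stood at 3.38, 10.1, 0.427 and 0.318 FPM in the controls, 6.60, 10.7, 5.77, 33.6 and 5.53 FPM in CCl4 and 53.4, 16.7, 9.87, 3.72 and 13.3 FPM in CCl4+eplerenone. Eplerenone replicate 1 and CCl4 replicate 4 were the highest, and CCl4 overlapped with the controls. Its log2FC against control, 1.80 in CCl4 and 2.44 in CCl4+eplerenone, did not pass. Both are descriptions, since the treated groups let this gene into the test. Cyp2c22, a hydroxylase of retinoic acid, rose to 1759 ± 320.5 FPM (SD, n = 5) from 1067 ± 241 FPM (SD, n = 4), with a log2FC of 0.72 ± 0.24 (SE), FDR 0.0464. Cyp2c23, an epoxygenase of arachidonic acid, fell from 1246 ± 137 FPM (SD, n = 4) to 699.7 ± 234 FPM (SD, n = 5), with a log2FC of -0.83 ± 0.28 (SE), FDR 0.0458. It had 705 ± 227 FPM (SD, n = 5) with eplerenone, where all rats were below all controls but the log2FC of -0.82 ± 0.28 (SE), FDR 0.0983, did not pass the test. Cyp2c6v1 was 2821 ± 375 FPM (SD, n = 4) in controls and 2984 ± 685 FPM (SD, n = 5) in CCl4, with a log2FC of 0.08 ± 0.24 (SE), FDR 0.819.

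Cyp2a1 (ENSRNOG00000020817), a testosterone hydroxylase, fell in CCl4. It stood at 1590.4, 1622, 1449 and 1198 FPM in the controls, 696, 664, 798, 552 and 697 FPM in CCl4 and 752, 1344, 703, 959 and 822 FPM in CCl4+eplerenone. The 5 CCl4 rats were all below the 4 controls and spanned a narrow range, with a log2FC of -1.10 ± 0.22 (SE), FDR 0.004. With eplerenone, replicate 2 lay within the control range and the other 4 below it, with a log2FC of -0.68 ± 0.22 (SE), FDR 0.0828, against control and an adjusted p of 0.0140 with DESeq2.

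Cyp2e1 (ENSRNOG00000012458), which oxidizes ethanol and converts CCl4 to its reactive radical, did not pass the test in any comparison. Its values were 2147, 2253, 1455 and 1791 FPM in the controls, 3179.7, 1616, 2238, 1119.8 and 1856 FPM in CCl4 and 3536, 4175, 796, 2062 and 1617 FPM in CCl4+eplerenone. All groups overlapped, and the lowest and highest rats were both in the eplerenone group, replicates 3 and 2. The log2FC was 0.07 ± 0.40 (SE), FDR 0.917, in CCl4 against control, 0.28 ± 0.38 (SE), FDR 0.718, in CCl4+eplerenone against CCl4 and 0.35 ± 0.41 (SE), FDR 0.705, in CCl4+eplerenone against control.

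In CYP2D, Cyp2d2, the debrisoquine hydroxylase of the rat, fell from 2137 ± 239 FPM (SD, n = 4) to 1119.5 ± 309 FPM (SD, n = 5), with a log2FC of -0.93 ± 0.31 (SE), FDR 0.0473. Cyp2d3, Cyp2d4 and Cyp2d5 had log2FC of -0.76, -1.03 and -0.65 and did not pass. Without both libraries that stood apart, all 4 CYP2D genes were called lower in CCl4. Cyp2j10 fell from 128 ± 11.2 FPM (SD, n = 4) to 62.8 ± 17.5 FPM (SD, n = 5) at -1.03 ± 0.26 (SE), FDR 0.0148, while Cyp2j4 was at -0.43 ± 0.27 (SE), FDR 0.245.

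Cyp2r1 (ENSRNOG00000011367), a hydroxylase that activates vitamin D, had few reads but separated well. It stood at 3.92, 5.09, 3.23 and 3.88 FPM in the controls, 1.16, 1.84, 0.916, 0.871 and 1.96 FPM in CCl4 and 1.74, 3.38, 1.62, 3.27 and 2.18 FPM in CCl4+eplerenone. Each CCl4 rat was below each control, with a log2FC of -1.57 ± 0.34 (SE), FDR 0.00725, and eplerenone rats lay between and overlapped with both. Cyp2f4, known for the oxidation of naphthalene in lung, stood at 81.9, 99.6, 129.7 and 98.5 FPM in the controls, 63.3, 66.1, 37.0, 38.5 and 47.1 FPM in CCl4 and 14.9, 37.4, 44.7, 46.5 and 43.8 FPM in CCl4+eplerenone. All 10 CCl4-treated rats were below all controls, and eplerenone replicate 1 was lowest. The log2FC against control was -1.02 ± 0.28 (SE), FDR 0.0225, in CCl4 and -1.45 ± 0.29 (SE), FDR 0.0106, in CCl4+eplerenone. Cyp2s1, Cyp2t1 and Cyp2u1 passed in no comparison, with log2FC in CCl4 against control of 0.36, -0.47 and 0.26.

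Of the 4 CYP3A genes, 1 passed the test in CCl4. Cyp3a62 (ENSRNOG00000001379), a form known mainly from the intestine, rose in both CCl4-treated groups. It stood at 5.43, 7.97, 6.65 and 11.1 FPM in the controls, 23.1, 40.04, 28.5, 42.4 and 26.5 FPM in CCl4 and 17.1, 11.8, 13.6, 14.6 and 27.0 FPM in CCl4+eplerenone. No treated rat overlapped with the controls, and eplerenone replicates 1 to 4 were below the whole CCl4 range. The log2FC against control was 2.04 ± 0.29 (SE), FDR 0.000875, in CCl4 and 1.11 ± 0.28 (SE), FDR 0.0325, in CCl4+eplerenone, and the difference between the 2 treated groups was -0.93 ± 0.26 (SE), FDR 0.312. Cyp3a23.3a1 (ENSRNOG00000032560), a PXR target induced by steroids, stood at 4880.0, 2707, 3061 and 2792 FPM in the controls, 999, 1209, 584, 679 and 3535 FPM in CCl4 and 1925, 3848, 379, 1710.4 and 1812 FPM in CCl4+eplerenone. CCl4 replicates 1 to 4 were below all controls and replicate 5 was among them. The log2FC was -1.26 ± 0.56 (SE), FDR 0.117, and -1.95 (FDR 0.00996) without CCl4 replicate 5, where 14.1% of all genes were called lower.

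Cyp3a9, a female-predominant form, varied widely within the treated groups. It stood at 103, 90.0, 33.8 and 99.5 FPM in the controls, 38.3, 18.4, 16.1, 0.308 and 5.83 FPM in CCl4 and 68.9, 187, 1.17, 14.3 and 1.37 FPM in CCl4+eplerenone. CCl4 replicate 4 and eplerenone replicates 3 and 5 had 1.37 FPM or less, while eplerenone replicate 2 was above all controls. The log2FC was -2.37 in CCl4 against control and 1.78 ± 1.11 (SE), FDR 0.43, in CCl4+eplerenone against CCl4.

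**Figure D4:**
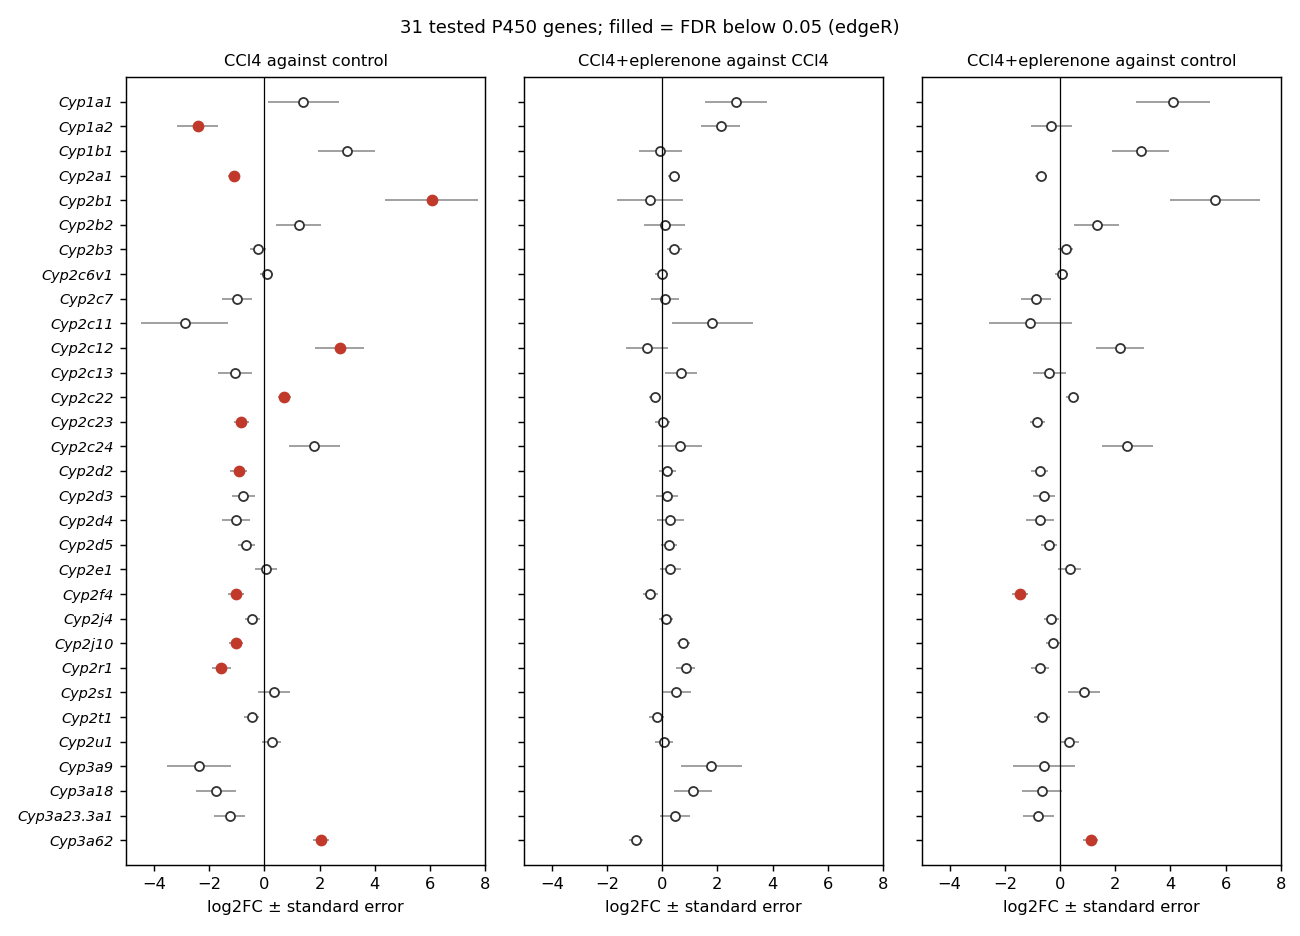
Log2FC with standard error (horizontal axis) of the 31 tested P450 genes (vertical axis) in the 3 comparisons; filled points passed an FDR of 0.05 with edgeR. In CCl4 against control 11 points are filled, in CCl4+eplerenone against CCl4 none is, and in CCl4+eplerenone against control those of Cyp2f4 and Cyp3a62 are.

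Comparing CCl4+eplerenone with CCl4 addressed whether P450 expression differed in CCl4 rats that also ate eplerenone. It uses the same CCl4 rats as the first comparison. Whether rats without eplerenone ate the hazelnut spread is not stated, and the rats sequenced had been selected by outcome. With edgeR 0 of 31 tested members passed the FDR, against 0.0139% of all genes, and with DESeq2 0 passed as well (0.513% of all genes). At an unadjusted p below 0.05, Cyp1a1, Cyp1a2, Cyp2j10 and Cyp2r1 were higher and Cyp3a62 was lower, 5 members against 14.4% of all genes. Cyp1a1 is among these only through the rats in which it was high. A log2FC above 0 was found for 23 of 31 members, against 51.1% of all genes, with a median of 0.26 for members and 0.01 for all genes. The 23 include Cyp1a1, Cyp2c24 and Cyp2s1, which entered the test through their higher or treated groups. For 0 members did the groups separate fully (0.964% of all genes).

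Without CCl4 replicate 5 and CCl4+eplerenone replicate 3, 7 members were called in this comparison, against 9.16% of all genes. Higher with eplerenone were Cyp2c11 at 6.66 (FDR 0.00589), Cyp1a2 at 2.57 (FDR 0.0467), Cyp3a18 at 1.99 (FDR 0.0298), Cyp2c13 at 1.51 (FDR 0.0164), Cyp3a23.3a1 at 1.40 (FDR 0.0249) and Cyp2j10 at 1.08 (FDR 0.0157). Cyp2c12 was the 1 lower, at -2.54 (FDR 0.0156). The 2 libraries had been chosen by their place on the first principal component, which is itself made from expression, so the counts describe the remaining 12 rats and are no independent test. With either library alone left out, 0 members passed with edgeR. CCl4+eplerenone replicate 2, the eplerenone rat nearest to the controls on the first principal component, was kept in these fits.

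Within the eplerenone group the rats differed widely. Replicate 2 was the highest of its group in 18 of 31 tested members (24.0% of all genes), and replicate 3 was the lowest in 20 (26.3% of all genes). The sum of 8 hepatocyte markers, such as albumin, was also lowest in replicate 3, at 111731 FPM, against 129500 to 204284 FPM in the other eplerenone rats. Its part in the result was not tested.

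Animal labels began with 13 or 16 in controls and with 15 or 20 in both treated groups. What these numbers stand for is not given in the sources used here, and in CCl4 against control they cannot be told apart from the treatment. Between the treated groups, CCl4 had 3 rats with 15 and 2 with 20, and CCl4+eplerenone had 2 and 3. The mean log2 difference of CCl4+eplerenone minus CCl4 for Cyp2c11 was 6.88 among the rats with 15 and -0.10 among those with 20. Cyp2b1 had 2.43 and -2.25, Cyp1a2 had 3.09 and 1.07, Cyp1a1 had 4.11 and 0.21, and Cyp3a62 had -1.06 and -0.94. Over the 31 tested members, 23 were higher with eplerenone among rats with 15 and 14 among rats with 20, and 12 had the same sign in both. The 31 include Cyp1a1, Cyp1b1, Cyp2c24 and Cyp2s1, which entered the test through their higher or treated groups. The same counts were not taken over all genes, so they cannot be read as particular to the P450s. With the label as a term in the fit, 0 members passed, and the share of all genes that passed in that fit is not given.

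In CCl4+eplerenone against control, which shares its controls with the first comparison, 2 of 31 members passed, Cyp3a62 higher and Cyp2f4 lower, against 5.22% of all genes. Cyp2f4 was called with any of the 14 libraries left out, Cyp3a62 in 8 of the 14 fits. DESeq2 called 6, against 10.6% of all genes, adding Cyp2a1 and Cyp2c23 as lower and, as higher, Cyp1a1 and Cyp1b1, which entered the test only through their higher groups. The median log2FC of the members was -0.31, against 0.01 for all genes. With total counts these medians were -0.11 and 0.32, and Cyp2b1 and Cyp2c22 were called higher as well, which made 3 members higher and 1 lower against 8.89% and 0.479% of all genes. All eplerenone rats lay above all controls for Cyp2b1 and Cyp3a62 and below them for Cyp2c23 and Cyp2f4, 4 members against 10.9% of all genes.

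Of 17 tested receptors and factors known to drive these genes, 6 fell and Foxa3 rose in CCl4 against control. Over all genes 6.71% fell and 13.4% rose. The median log2FC of the 17 was -0.81. Scaled by total counts, 2 of the 17 were called lower, Nr1i3 and Ppara, against 2.54% of all genes, with a median of -0.53. DESeq2 called 10 lower, for which no share of all genes is given here. Nr1i3, which encodes CAR, stood at 139, 86.7, 80.5 and 51.7 FPM in the controls, 29.8, 14.5, 27.7, 26.6 and 58.9 FPM in CCl4 and 29.0, 56.3, 29.9, 63.7 and 56.1 FPM in CCl4+eplerenone. CCl4 replicate 5 overlapped with the controls and replicates 1 to 4 did not, with a log2FC of -1.51 ± 0.37 (SE), FDR 0.0123. Nr1i2, which encodes PXR, had a log2FC of -0.82 ± 0.20 (SE), FDR 0.0113, and Ahr one of -0.92 ± 0.29 (SE), FDR 0.0352. Hnf4a and Foxa2, which keep the hepatocyte program, fell as well, with log2FC of -0.81 and -1.33. Ppara, a receptor activated by fatty acids, fell at -2.03. With eplerenone 0 of the 17 passed against CCl4, and 0 against control, with 4 genes at an unadjusted p below 0.05 in each. Over all genes 14.4% had such a p against CCl4, and the share against control is not given here. DESeq2 called Ppara higher in the first and Foxa3 in the second.

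Por, which encodes P450 oxidoreductase, stood at 143, 100.7, 87.3 and 74.7 FPM in the controls, 119.5, 88.3, 165, 259 and 96.1 FPM in CCl4 and 754, 233, 143, 113 and 240.4 FPM in CCl4+eplerenone. Eplerenone replicate 1 was the highest rat, as it was for Cyp2b1 within its group, and the log2FC was 0.52 ± 0.48 (SE), FDR 0.437, in CCl4 and 1.55 ± 0.50 (SE), FDR 0.0836, in CCl4+eplerenone against control, which DESeq2 called. Of the 6 redox partners, Pgrmc1 and Pgrmc2, heme-binding partners of P450s, fell in CCl4 at -0.89 and -1.09, against 6.71% of all genes. With total counts only Pgrmc2 was called, against 2.54% of all genes. None of 13 genes of heme synthesis and breakdown passed in CCl4 with edgeR or DESeq2, and 0 had an unadjusted p below 0.05. Alas1, the first enzyme of heme synthesis, had a log2FC of 0.02 ± 0.52 (SE), FDR 0.982. Ppox fell in CCl4+eplerenone against control at -0.91 ± 0.20 (SE), FDR 0.0163, where 0.895% of all genes were called lower. It was not called with total counts.

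Other targets of CAR and PXR did not follow 1 direction. Of 9 tested, Ephx1, Abcc3, Aldh1a1 and Gadd45b rose in CCl4 and the bile pump gene Abcc2 fell, against 13.4% and 6.71% of all genes. Only Abcc2 lost its call with total counts. Abcc3 stood at 2.53, 2.83, 3.36 and 1.78 FPM in the controls, 13.7, 23.0, 12.2, 59.3 and 6.84 FPM in CCl4 and 20.8, 4.503, 36.5, 6.88 and 9.45 FPM in CCl4+eplerenone. No CCl4-treated rat overlapped with the controls, and CCl4 replicate 4, the highest for Cyp2b1, was the highest here too. Its log2FC was 3.13 ± 0.69 (SE), FDR 0.00763, while that of Aldh1a1 was 1.95 ± 0.33 (SE), FDR 0.00191. Of 5 AHR targets outside the P450s, 3 had enough reads and 0 passed with edgeR or DESeq2, with 0 at an unadjusted p below 0.05. Nqo1 had a log2FC of 1.09 ± 0.62 (SE), FDR 0.206.

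Genes of the growth hormone signal, which keeps Cyp2c11 on and Cyp2c12 off in males, were 10 in number. In CCl4 5 of them fell, against 6.71% of all genes. Ghr, the receptor, stood at 437, 366, 391.8 and 406 FPM in the controls, 85.4, 151, 100.1, 108 and 260.4 FPM in CCl4 and 237, 357, 126, 286 and 158 FPM in CCl4+eplerenone. All CCl4 rats were below all controls, and CCl4 replicate 5 was the highest of its group, with a log2FC of -1.51 ± 0.34 (SE), FDR 0.00784. Stat5b, its signal transducer, fell at -1.25 ± 0.29 (SE), FDR 0.00951, and Bcl6, a repressor of female genes in male liver, at -1.84 ± 0.47 (SE), FDR 0.0153. Stat5a and Igf1 fell as well, and the other 5 did not pass. With total counts 2 of the 10 were called lower, Ghr and Stat5b, against 2.54% of all genes. DESeq2 called 6 lower, adding Socs2, with no share of all genes given here. Against control, Stat5a and Bcl6 were also lower with eplerenone, at -0.72 and -1.81, where 0.895% of all genes were called lower. Neither was called with total counts, where 0.479% of all genes were called lower.

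**Figure D5:**
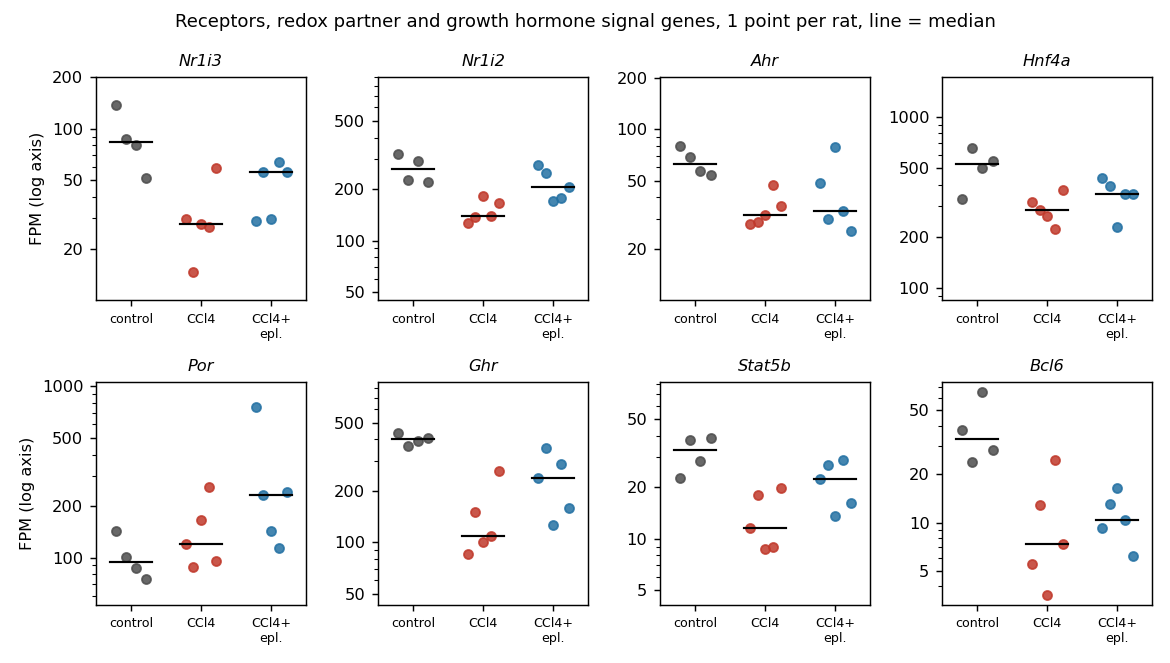
FPM on log axes (vertical) of genes for the receptors CAR (Nr1i3), PXR (Nr1i2) and AHR (Ahr), for Hnf4a, P450 oxidoreductase (Por) and the growth hormone signal (Ghr, Stat5b, Bcl6), 1 point per rat, in controls (grey), CCl4 (red) and CCl4+eplerenone (blue), with medians as lines. Ghr is lower in all CCl4 rats than in controls, and Por reaches 754 FPM in 1 eplerenone rat.

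Markers of other cells moved with the groups. Over all genes, edgeR called 13.4% higher and 6.71% lower in CCl4 against control. All 6 biliary markers rose in CCl4, with summed levels of 14.4 to 23.6 FPM in controls, 46.4 to 142 FPM in CCl4 and 46.3 to 97.4 FPM in CCl4+eplerenone. Of 7 stellate cell and myofibroblast markers 5 rose, with sums of 129 to 223 FPM in controls, 254 to 501 FPM in CCl4 and 365 to 498 FPM in CCl4+eplerenone. With edgeR 0 of 8 hepatocyte markers passed and 5 had an unadjusted p below 0.05, while DESeq2 called 1 higher and 4 lower. No share of all genes is given here for the unadjusted p or for DESeq2, so those counts cannot be set against the whole table. Hepatocyte marker sums were 185676 to 214217 FPM in controls, 143494 to 201019 FPM in CCl4 and 111731 to 204284 FPM in CCl4+eplerenone, with CCl4 replicate 5 the highest of its group. Of the tested lymphocyte markers 3 of 5 rose, while macrophage and endothelial markers had 1 higher and 1 lower each, of 6 and 5 (3 higher and 1 lower for macrophages with total counts), and 0 of 3 blood cell markers passed with edgeR, DESeq2 or an unadjusted p below 0.05. The part of cell makeup in the P450 results was not tested.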

How the data were processed

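The authors sequenced poly(A) RNA of whole livers as paired reads of 150 bp, aligned them to rn6 by HISAT2 2.1.0 and took exon counts per gene from featureCounts 2.0.0. A read with several alignments entered the count of each gene, and the use of strand is not given in the sources used here. The deposited table holds raw counts per gene for 14 libraries, with no normalization. Genes were annotated from Ensembl archive 101.

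Here counts were filtered with filterByExpr of edgeR 4.0.16 (R 4.3.3) at a smallest count of 10, which kept 14417 genes, and library sizes were set by TMM. One quasi-likelihood fit held the 3 groups. The Benjamini-Hochberg adjustment ran over the whole tested table, with a call at an FDR below 0.05. DESeq2 1.42.0, other scalings, filters and designs, and each library left out in turn were alternatives. For DESeq2 and for an unadjusted p below 0.05 in CCl4 against control, the share of all genes is not given. The test was tried on simulated data before use. FPM used TMM library sizes, and principal components used log2 FPM with a prior count of 2. DESeq2 gave no p for Cyp2b1, which was left as missing.

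Genes named with values are Cyp2b1, Cyp1a2 and Cyp2e1, every member called by edgeR, the 5 largest absolute log2FC per comparison, the 5 highest control means, and the sex-predominant forms. Values of Cyp2b2, Cyp2b3, Cyp2d3, Cyp2d4, Cyp2d5, Cyp2j4, Cyp2s1, Cyp2t1, Cyp2u1 and Nqo1 were added outside this rule, after they were seen. Members, lists of regulators, targets and cell markers, and motifs were chosen with earlier results of these data known. Of the lists, Ugt1a1, Ugt2b1, Abcb1a, Col1a2 and Pecam1 were not analysed here. Promoters are 250 bases before the gene start from RefSeq (GRCr8), a build other than that of the counts, and 35 of 37 members matched by symbol. Replicates are different rats. Animals were housed in small groups per the study's methods, and which of these rats shared a cage or litter is not given in the sources used here.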

Additional observations from a re-analysis of the deposited data

Results flagged for a closer look

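In 8 of 93 sets of values, a set being 1 gene in 1 group, 1 rat stood apart from the others of its group by Dixon's test on log2 FPM. Chance flags about 1 in 20 such sets. Cyp2b1 reached 1066 FPM in CCl4 replicate 4, against 14.4 to 45.2 FPM in the other CCl4 rats, and 736 FPM in CCl4+eplerenone replicate 1, against 19.2 to 53.6 FPM in the others. CCl4+eplerenone replicate 1 was also apart for Cyp2f4, with 14.9 FPM against 37.4 to 46.5 FPM. Cyp2c13 was at 161 FPM in CCl4+eplerenone replicate 3, against 1805 to 3122 FPM.

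In the controls, replicate 3 was high for Cyp2c6v1, with 3379 FPM against 2590.3 to 2697 FPM, and for Cyp2d2, with 2493 FPM against 1974 to 2043 FPM. Control replicate 2 was high for Cyp2j4, with 52.5 FPM against 41.9 to 42.6 FPM. Control replicate 4 was low for Cyp3a9, with 33.8 FPM against 90.0 to 103 FPM.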

How the results depend on the processing

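In CCl4 against control, Cyp2e1 changed sign without passing any test, at -0.14 with the replicate block, -0.14 without CCl4 replicate 1 and -0.05 without control replicate 4, within a range of -0.14 to 0.23 over single libraries left out. Cyp2b1 in CCl4+eplerenone against CCl4 turned to 2.57 without CCl4 replicate 4 and was -2.88 without CCl4+eplerenone replicate 1. With 1 library left out, the members called higher in CCl4 against control ranged from 1 to 5. The 5 include Cyp1b1, which entered the test only through its higher groups. Members called lower ranged from 3 to 11, the latter without CCl4 replicate 5, where 14.1% of all genes were called lower. For CCl4+eplerenone against CCl4 both counts stayed at 0, and against control they ranged from 0 to 2 higher and from 1 to 3 lower. In that last comparison the members called higher were 3 with total counts, 2 without a filter on low counts, 3 with DESeq2 and 2 with only the 2 groups in the fit, and DESeq2 called 3 lower. The 3 called higher by DESeq2 include Cyp1a1 and Cyp1b1, which entered the test only through their higher groups. Without both CCl4 replicate 5 and CCl4+eplerenone replicate 3, an alternative added after seeing the data, 14 members were lower in CCl4 than in control, against 14.9% of all genes, and with eplerenone 6 were higher and 1 was lower than in CCl4. Where no share of all genes stands beside a count for a fit, that count cannot be set against the whole table. The cause of these moves was not tested.

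Replicate numbers did not pair the rats. Of 13 same-numbered pairs from different groups, 3 had deviations from their group means that correlated above 0.1, with a range of -0.33 to 0.19 and a median of -0.07, against 0.01 for rats with different numbers. With the replicate number as a block, 1 member was called higher and 4 lower in CCl4 against control, and 0 higher and 0 lower in CCl4+eplerenone against control. The share of all genes called with this block is not given, so the whole table may have lost calls too.

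Genes at about 1 FPM or less, such as Cyp1b1, rest on few reads per library. Over all genes, 66.7% of calls in CCl4 against control were higher with TMM and 89.3% with total counts; in CCl4+eplerenone against control the shares were 82.9% and 94.9%. Reads shared between near-identical genes were not separated.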
